A study of Mus musculus with 2 samples.

Results

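Messenger RNA processing and splicing genes were examined in lung tissue of mice that lacked Bclaf1 and of wild-type mice. The members were the clones of the authors' 2 deposited gene tables that carried a gene symbol and a gene ontology term for messenger RNA processing, RNA splicing, the spliceosome or RNA processing, without a ribosome, translation or mitochondrion term, plus Bclaf1 and its relative Thrap3 by name. This gave 52 genes on 59 clones, of 2327 gene symbols named in those tables. No clone had to be removed for a ribosome, translation or mitochondrion term. Of the 59 clones, 48 carried the term for messenger RNA processing, 37 RNA splicing, 28 the spliceosome and 9 RNA processing, and 2 were in the list by name alone. The terms also cover enzymes of ribosomal and micro RNA maturation, so the list is wider than messenger RNA.

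Each of 2 spotted mouse cDNA arrays carried RNA of 1 wild-type lung sample labelled with Cy5 and RNA of 1 Bclaf1 knockout lung sample labelled with Cy3. The comparison asked which transcripts differ between lungs with and without Bclaf1. The sample titles give embryonic day 19 and the series text postnatal day 1 for the tissue. The labels do not describe the knockout allele, the strain or the sexes, nor whether the second pair of samples came from other animals, so the spread between the arrays may be technical. Each clone had 1 log2 ratio per array. Since the dyes were not swapped, an effect of dye cannot be told apart from an effect of genotype. The numerator of the ratio is not stated either. Taken as Cy5 over Cy3, positive values would be those higher in wild-type lung, and by the titles of the authors' tables they would be those higher in the knockout. Values are therefore given as lying on the positive side, which holds the authors' up-regulated table, or on the negative side.

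Of 22656 clones, 22532 had a value on both arrays, with medians of 0.0068 and 0.0041 and an SD over clones of 0.294 and 0.430. In whole tissue, fewer cells of a type and less RNA per cell cannot be told apart, and a ratio gives no level, so the lung markers could not be used to check the tissue. Of 56 fixed markers of lung and neighbouring cell types, 3 were named in the authors' tables: Tnnt2 of heart muscle and Myh11 of smooth muscle on the positive side and Myh6 of heart muscle on the negative side. None of the fixed alveolar, airway, endothelial, leukocyte, lymphocyte, liver and red cell markers was named there. The sex-linked transcripts also differed between the channels: Xist had log2 ratios of 2.69 and 2.15, and the Y-linked Ddx3y had -1.12 and -0.61. Each of these transcripts had the same sign on both arrays, which also share the pairing of genotype and dye. A difference in sex between the samples therefore cannot be told apart from genotype or dye, and its part in the values below was not tested.

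Splicing removes introns from the primary transcript. It is carried out by the spliceosome, which is built from small nuclear ribonucleoproteins (snRNPs) and many further proteins. Serine/arginine-rich (SR) proteins and heterogeneous nuclear ribonucleoproteins (hnRNPs) bind the transcript and steer which splice sites are used, and other factors cap the transcript, cleave and polyadenylate it, and degrade what is left over. Bclaf1, the Bcl2-associated transcription factor, is a nuclear protein rich in serine and arginine that has been found with Thrap3 in complexes that bind and process messenger RNA. In the lung, splicing regulators of epithelial and mesenchymal cells are known to shape the isoforms of many cell surface and cytoskeletal proteins.

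The start regions of 4 genes are shown: Bclaf1 and Thrap3, close relatives that lay on opposite sides, and Luc7l3 and Srsf7, which had the largest mean ratio on either side. The sequences are RefSeq's, build GRCm38.p6, each of 300 bases from 250 before to 50 after the gene's start, on the gene's own strand. Capitals mark the ETS core CCGGAAG, the only searched motif found in these 4 windows.
Bclaf1, chr10:20312219-20312518, plus strand: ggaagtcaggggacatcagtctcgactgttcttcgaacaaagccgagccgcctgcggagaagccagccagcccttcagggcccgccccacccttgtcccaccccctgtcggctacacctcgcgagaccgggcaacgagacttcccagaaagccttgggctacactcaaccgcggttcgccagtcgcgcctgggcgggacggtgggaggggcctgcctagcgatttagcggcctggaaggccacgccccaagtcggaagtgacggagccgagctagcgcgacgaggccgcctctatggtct
Thrap3, chr4:126202661-126202960, minus strand: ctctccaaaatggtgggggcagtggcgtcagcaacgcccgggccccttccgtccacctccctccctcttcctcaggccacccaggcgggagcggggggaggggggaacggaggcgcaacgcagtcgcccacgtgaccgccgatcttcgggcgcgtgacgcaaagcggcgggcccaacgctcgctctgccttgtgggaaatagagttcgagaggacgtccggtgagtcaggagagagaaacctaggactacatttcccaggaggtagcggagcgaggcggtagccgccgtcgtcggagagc
Luc7l3, chr11:94321914-94322213, minus strand: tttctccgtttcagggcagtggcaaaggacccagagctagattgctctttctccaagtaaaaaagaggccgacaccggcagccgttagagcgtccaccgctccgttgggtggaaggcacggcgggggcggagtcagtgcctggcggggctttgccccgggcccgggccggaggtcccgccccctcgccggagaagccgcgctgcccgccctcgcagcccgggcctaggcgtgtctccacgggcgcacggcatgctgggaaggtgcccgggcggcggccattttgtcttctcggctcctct
Srsf7, chr17:80207256-80207555, minus strand: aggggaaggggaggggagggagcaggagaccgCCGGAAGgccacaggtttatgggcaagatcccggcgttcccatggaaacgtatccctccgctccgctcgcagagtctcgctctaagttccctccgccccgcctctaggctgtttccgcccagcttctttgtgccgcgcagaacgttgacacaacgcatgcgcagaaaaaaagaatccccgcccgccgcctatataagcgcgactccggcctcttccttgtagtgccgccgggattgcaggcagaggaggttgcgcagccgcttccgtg

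All 4 windows were rich in G and C, with 66.3% for Bclaf1, 67% for Thrap3, 68.7% for Luc7l3 and 62.7% for Srsf7. Windows were found for 39 of the 49 member genes whose symbol and gene ID agree, 49 windows in all, with a median of 62.7% against 52.7% over all 32851 windows of the table. Each motif was searched on both strands. The ETS core CCGGAAG stood in 10 of the 49 member windows (20.4%) and in 8.86% of all windows; of the 10, 6 belonged to the 27 windows of genes on the positive side and 4 to the 22 on the negative side. The CCAAT box CCAAT was found in 40.8% of member windows and 37.4% of all, and the TATA box TATAAA in 10.2% and 13.6%. The YY1 site AAGATGGC stood in 3 member windows (6.12%) and in 2.75% of all. These 3 belonged to Lsm7 and Mtrex alone, on the negative side, since a gene can have more than 1 window. None of the 4 motifs contains another, and these are counts of letters in windows of unequal base composition.

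The 52 genes split almost evenly between the sides. Over the clones with a value on both arrays, 26 genes had positive clones alone, 24 genes had negative clones alone, and 2 genes, Papola and Slu7, had clones on both sides. Strap, counted here as positive, also had a clone at -0.71 on array 1 with no value on array 2. By the mean of a gene's clones 27 genes (51.9%) were positive, against 1120 of the 2319 named genes with values (48.3%). The absolute mean log2 ratio of the 58 member clones measured on both arrays had a median of 0.35, equal to a 1.27-fold difference between the channels. It was 0.34 over all named clones and 0.17 over all clones of the array. Positive clones differed 1.16-fold to 2.48-fold and negative clones 1.14-fold to 2.38-fold, with a gap around 0 that the authors' selection leaves. The authors' deposited tables give the members fold changes of 1.15 to 2.34 in the up-regulated and 0.42 to 0.87 in the down-regulated table, with p-values of 0.01 to 0.05.

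Because every named clone had been selected by the authors on these arrays, neither the sides nor the p-values of the members are independent evidence. All 58 clones had the same sign on both arrays, 30 positive and 28 negative, where 35.7% of all clones were positive and 33.9% negative on both. By limma, none of the members had a Benjamini-Hochberg adjusted p under 0.05, as for all clones (0% called), and their adjusted p ran from 0.349 to 0.410. At an unadjusted limma p under 0.05 stood 35 of the 58 member clones (60.3%), beside 13.9% of all clones and 59.4% of the named clones, so the members' share was near that of the named clones. Past 1.5-fold on both arrays there was 1 positive member clone, Rbm39, where 0.506% of all clones were positive at that size, and 0 negative members, where 0.311% were negative. Rbm39 stood at the limit (0.585 on the log2 scale) with 0.59 on array 1 and fell short of it once each array was centred on its median. With 2 arrays, 1 residual degree of freedom is left per clone, which limits the precision of each value below. Errors are SDs over the arrays, n = 2.

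**Figure D1:**
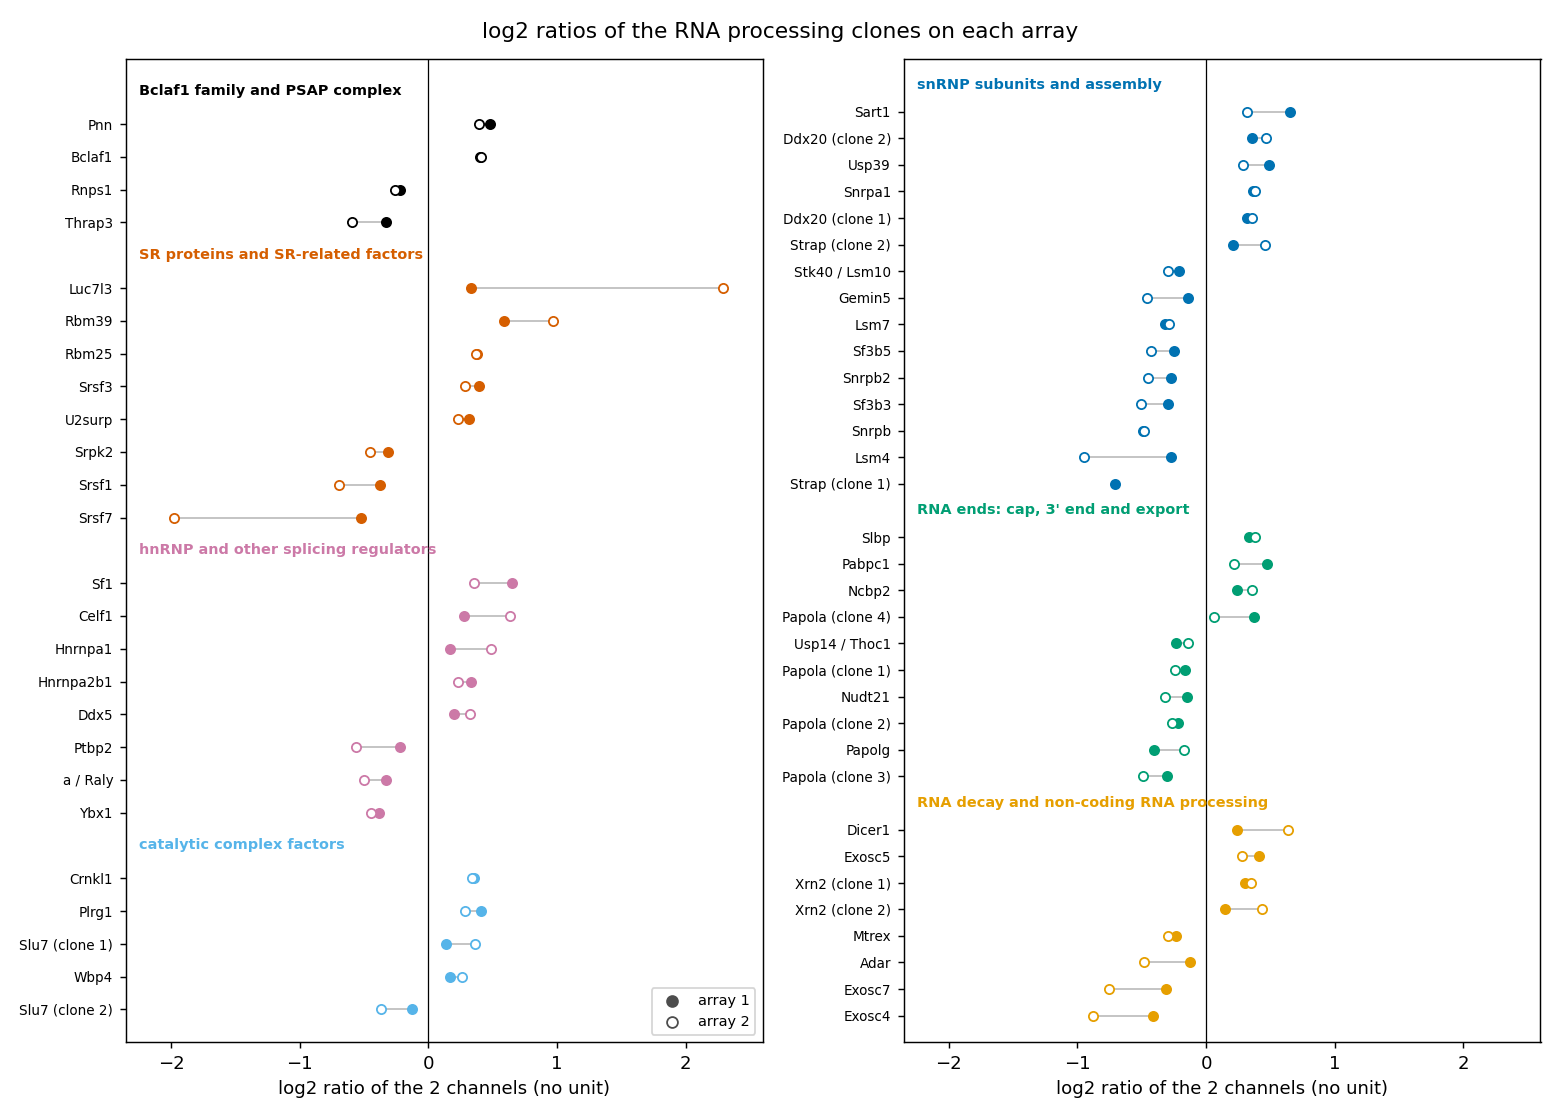
Log2 ratio of the member clones, all but 1, on array 1 (filled) and array 2 (open), by role. All clones lie on 1 side of 0 on both arrays; Luc7l3 at 0.33 and 2.29 and Srsf7 at -0.53 and -1.98 have the widest gaps between the arrays, and Strap clone 1 has a value on array 1 only.

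Bclaf1 was represented by 1 clone, with a log2 ratio of 0.40 on array 1 and 0.41 on array 2. This was a 1.32-fold difference between the channels on the positive side, and the arrays differed by only 0.0083 (SD). The knockout channel therefore had the weaker Bclaf1 signal if Cy5 is the numerator and the stronger one if Cy3 is. The position of the clone against the deletion is unknown here, and the value is no check of the labels. Thrap3, also known as TRAP150 and the closest relative of Bclaf1, had -0.33 and -0.59, a mean of -0.46 ± 0.19 and a 1.37-fold difference. The relatives thus lay on opposite sides. All 58 member clones with both values had the same sign on both arrays, so the second array adds no support to a pair. With 51.9% of member genes positive, opposite sides are also no rare outcome for any pair.

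Pinin and RNPS1 form, with SAP18, the PSAP complex that binds spliced messenger RNA next to the exon junction complex. Pnn, a partner of SR proteins, had 0.48 and 0.40 (mean 0.44 ± 0.061). Rnps1, an activator of splicing, had -0.22 and -0.26 (mean -0.24 ± 0.026). These partners also lay on opposite sides. The authors' deposited table places the Rnps1 clone on chromosome 6 and RefSeq places the gene on chromosome 17, so it is not known which copy the clone represents.

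The SR proteins and the factors related to them held the most extreme ratios on either side, with 5 positive and 3 negative genes of 8. Luc7l3, a U1 snRNP-associated protein with a serine/arginine-rich tail (listed as 3300001P08Rik), had 0.33 on array 1 and 2.29 on array 2. Its mean of 1.31 ± 1.39 rested on array 2, and the SD was larger than the mean. Srsf7, an SR protein that also acts in messenger RNA export (listed as Sfrs7), had -0.53 and -1.98, a mean of -1.25 ± 1.03. On array 1 Luc7l3 lay near the positive clones' median of 0.35, whereas Srsf7 was the lowest of the negative clones with values on both arrays. Both genes had the larger ratio on array 2.

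Rbm39, a splicing factor related to U2AF, had 0.59 and 0.97, a mean of 0.78 ± 0.27 and a 1.72-fold difference. It had the lowest unadjusted limma p of the members, 0.00836, with an adjusted p of 0.349. Srsf1, the founding SR protein, lay at -0.37 and -0.70 (mean -0.53 ± 0.23). Srsf3, the smallest SR protein, lay at 0.39 and 0.29 (mean 0.34 ± 0.074). The 3 classical SR proteins in the list were therefore 1 positive and 2 negative.

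Rbm25, which in human cells regulates the splicing of Bcl2l1 (listed as 2600011C06Rik), had 0.38 and 0.37 and so differed little between the arrays. U2surp, a protein of the U2 snRNP with a serine/arginine-rich domain (listed as 2610101N10Rik), had 0.32 and 0.23. The kinase Srpk2, which phosphorylates SR proteins, had -0.31 and -0.45 (mean -0.38 ± 0.10). It lay on the side of Srsf1 and Srsf7, while Srsf3 lay on the other.

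Among hnRNPs and other splicing regulators, 5 genes were positive and 3 negative. Sf1, the protein that recognises the branch point, had 0.65 and 0.35 (mean 0.50 ± 0.21). Celf1, a regulator that binds GU-rich RNA (listed as Cugbp1), had 0.28 and 0.64 (mean 0.46 ± 0.25). The abundant hnRNPs were on the same side with smaller ratios: Hnrnpa1 had 0.17 and 0.49, and Hnrnpa2b1 had 0.33 and 0.23. Ddx5, an RNA helicase of the spliceosome and of micro RNA maturation, had 0.20 and 0.33. Hnrnpa1 has many processed copies in the genome, and a cDNA clone cannot separate transcripts of near-identical sequence.

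The negative regulators had the larger ratio on array 2. Ptbp2, the neuronal form of the polypyrimidine tract binding protein, had -0.22 and -0.56. Ybx1, a protein that packages and stabilises messenger RNA, had -0.39 and -0.45 (mean -0.42 ± 0.044). The clone tied to nonagouti by its symbol and to the hnRNP Raly by its gene ID had -0.33 and -0.50, and which gene it represents is not settled.

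Of the 13 genes of snRNP subunits and assembly factors, 5 were positive and 8 negative with a median of -0.30, where 48.3% of all named genes were positive, and the difference was not tested. Snrpb, a protein of the Sm ring that all major snRNPs of the spliceosome but U6 share, had -0.49 and -0.48, a mean of -0.48 ± 0.0060 with an unadjusted limma p of 0.00979 (adjusted 0.349). Lsm4, a subunit of the related ring on U6 RNA, had -0.27 and -0.95, and its ring neighbour Lsm7 had -0.32 and -0.29. Both were negative on each array, and the mean of Lsm4 rested more on array 2. Both members that are subunits of the SF3B complex of the U2 snRNP were negative. Sf3b3 had -0.29 and -0.50, and Sf3b5 had -0.25 and -0.43. Subunits outside the authors' tables could not be looked up by name.

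Snrpb2 and Snrpa1 encode the U2 proteins that bind each other on a stem of U2 RNA. Snrpb2 had -0.28 and -0.45 (mean -0.36 ± 0.12), whereas Snrpa1 had 0.37 and 0.38 (mean 0.37 ± 0.0093). The binding partners lay on opposite sides. Of the factors of the U4/U6.U5 particle, Sart1, which recruits it, had 0.65 and 0.32, and Usp39, needed for its assembly, had 0.49 and 0.29. Both of these were positive on each array.

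The SMN complex loads Sm proteins onto small nuclear RNAs, and its members were divided. Ddx20, its helicase also called Gemin3, was positive on both of its clones, with 0.36 and 0.47 for one and 0.32 and 0.36 for the other. Gemin5, which recognises the small nuclear RNA, had -0.14 and -0.46. Strap, which is also called UNRIP, had 0.21 and 0.46 for 1 clone, while the other had -0.71 on array 1 and no value on array 2. A clone tied to Stk40 by symbol and to Lsm10, a protein of the U7 snRNP, by gene ID had -0.21 and -0.30.

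Of 5 clones of factors of the catalytic spliceosome, 1 was negative. Crnkl1, a scaffold of the active complex, had 0.36 and 0.34 (mean 0.35 ± 0.012), and Plrg1, a WD-repeat protein of the PRP19 complex, had 0.41 and 0.29. Wbp4, a protein of early spliceosomes, had 0.17 and 0.26. The exception was Slu7, which holds the free exon before the last splicing step: 1 of its clones had 0.14 and 0.36 and the other -0.12 and -0.36. The mean of the Slu7 clones was 0.0036, so no side could be given to the gene.

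Genes that act on the ends of the transcript were also mixed. Slbp, which binds the stem-loop of histone messenger RNA, had 0.33 and 0.38 (mean 0.36 ± 0.031). Ncbp2, the cap-binding subunit of the nuclear cap complex, had 0.24 and 0.36, and Pabpc1, the cytoplasmic poly(A)-binding protein, had 0.48 and 0.22. All 3 lay on the positive side, with ratios below 0.50.

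The polyadenylation factors had negative means over their clones, though 1 clone of Papola was positive. Nudt21, the subunit of cleavage factor I that selects poly(A) sites, had -0.15 and -0.32, and Papolg, a second poly(A) polymerase, had -0.41 and -0.17. Papola, the main nuclear poly(A) polymerase, had 4 clones, more than any other member. Of these, 3 were negative, with means of -0.20, -0.24 and -0.40, and the other had 0.37 on array 1 and 0.061 on array 2. A clone tied to Usp14 by symbol and to Thoc1, a subunit of the export complex THO, by gene ID had -0.23 and -0.14.

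**Figure D2:**
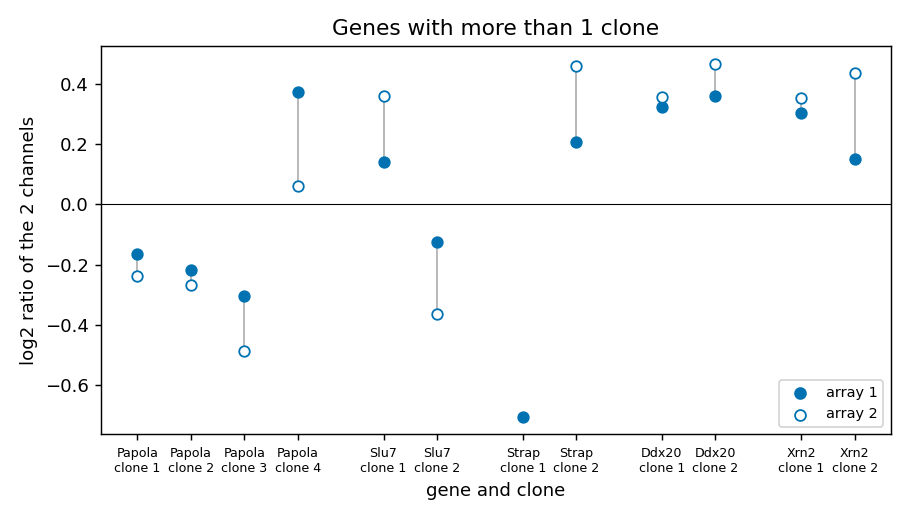
Log2 ratios on array 1 (filled) and array 2 (open) for the 12 clones of the 5 member genes with more than 1 clone. The Ddx20 and Xrn2 clones lie on the positive side, whereas those of Papola, Slu7 and Strap lie on both sides of 0.

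The RNA exosome degrades RNA from its end and trims ribosomal and small nuclear RNA. Its subunit Exosc4 had -0.41 and -0.88, a mean of -0.65 ± 0.33. Exosc7 had -0.31 and -0.76, a mean of -0.53 ± 0.31, and so lay on the same side. Exosc5, another subunit of the same ring, had 0.41 and 0.28 (mean 0.35 ± 0.090). Mtrex, the helicase that feeds RNA to the nuclear exosome (listed as Skiv2l2), had -0.23 and -0.29. Xrn2, the nuclear exonuclease that degrades from the other end and takes part in transcription termination, was positive on both clones, with means of 0.33 and 0.29. The exosome genes among the members were thus 2 negative and 1 positive, with its helicase on the negative side. Exosc3, an exosome gene named in the authors' tables but not a member, was positive with 0.12 and 0.39.

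Enzymes that modify or cut RNA completed the list. Dicer1, which makes micro RNAs, had 0.24 and 0.64 (mean 0.44 ± 0.28). Adar, which edits adenosine in double-stranded RNA, had -0.13 and -0.48 (mean -0.30 ± 0.25). They lay on opposite sides, each with the larger ratio on array 2.

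The gap between the arrays was uneven within the list. The median SD over the arrays was 0.12 for the member clones, 0.094 for all named clones and 0.12 for all clones. The ratio was farther from 0 on array 2 for 41 of the 58 member clones (70.7%), against 61.9% of named and 59.6% of all clones. On the negative side this held for 24 of 28 clones, with medians of -0.27 on array 1 and -0.45 on array 2. On the positive side it held for 17 of 30, with medians of 0.35 and 0.36. The shares by side were not computed for named or for all clones, so this difference between the sides cannot be called particular to the members. Array 2 also had the wider spread over all clones, and bringing the arrays to equal median absolute deviations or equal quantiles each put Srsf7 past 1.5-fold on both arrays.

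**Figure D3:**
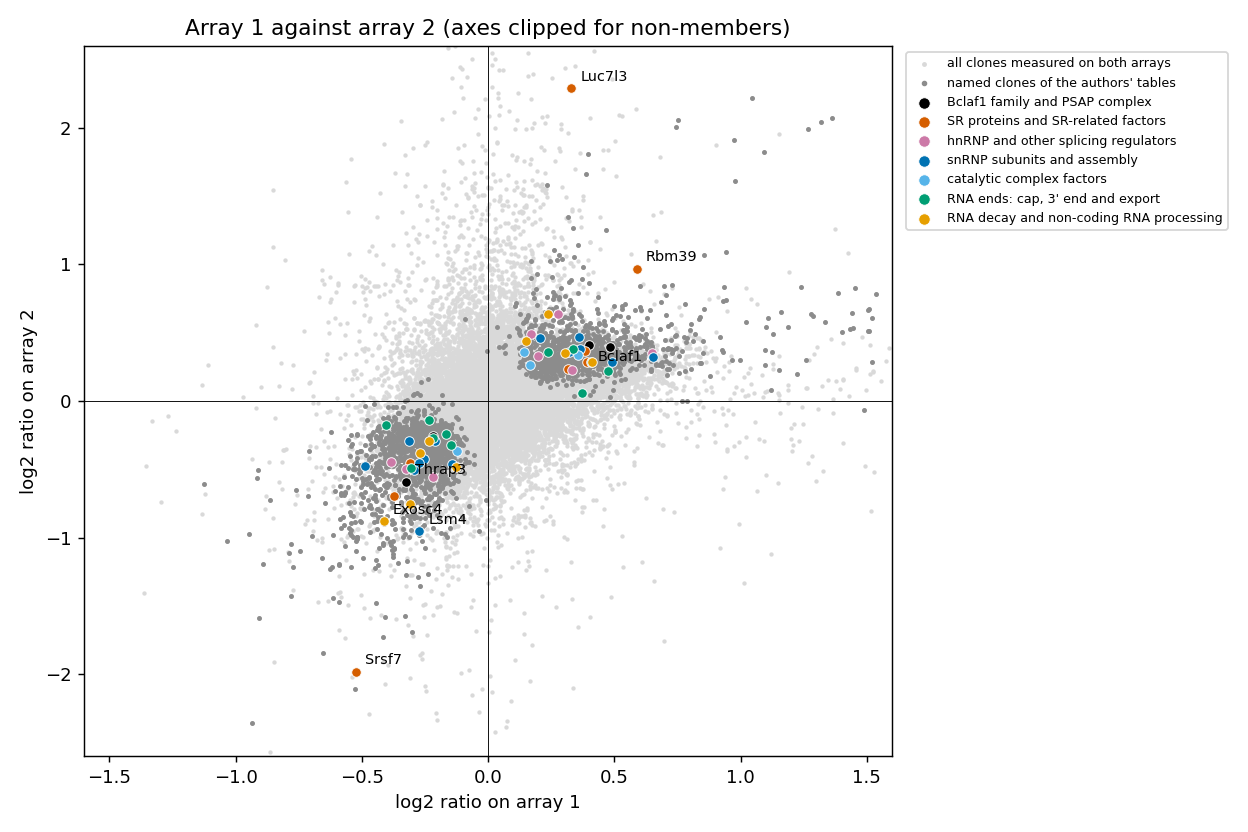
Log2 ratio on array 1 (x) and array 2 (y) for all clones with both values (light grey), the named clones of the authors' tables (dark grey) and the member clones (coloured by role). Members fill the same 2 clouds away from 0 as the other named clones. Luc7l3, Rbm39, Srsf7, Lsm4 and Exosc4 have the largest absolute means of the members, and some other named clones lie farther out. The axes are clipped for clones that are not members.

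The side of a member moved with its place in the clone numbering. The clone numbers were cut into 59 blocks of consecutive numbers, each of the size of a plate with 16 rows of 24 wells; blocks need not match the plates themselves. Block medians over all clones ran from -0.20 to 0.34 on array 1 and from -0.33 to 0.26 on array 2. Positive member clones had a median block of 8.5 and negative ones of 35, compared with 20 and 38 for named clones. In blocks 1 to 10, 18 of 19 member clones were positive (86.4% of named clones there), and in later blocks 12 of 39 were (38.1% of named clones there). Rnps1 was the only negative member clone in blocks 1 to 10 among those with both values. With the median of its block subtracted, the mean of every member clone kept its side, 30 positive and 28 negative. On single arrays 1 clone did not: U2surp had -0.020 on array 1 and 0.078 on array 2 after subtraction. The median of the positive clones fell from 0.35 to 0.26 and that of the negative clones moved from -0.35 to -0.33. The subtraction moved 22 of 58 clone means by more than their SD over the arrays. For example, Pnn went from 0.44 to 0.20 and Rnps1 from -0.24 to -0.37.

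**Figure D4:**
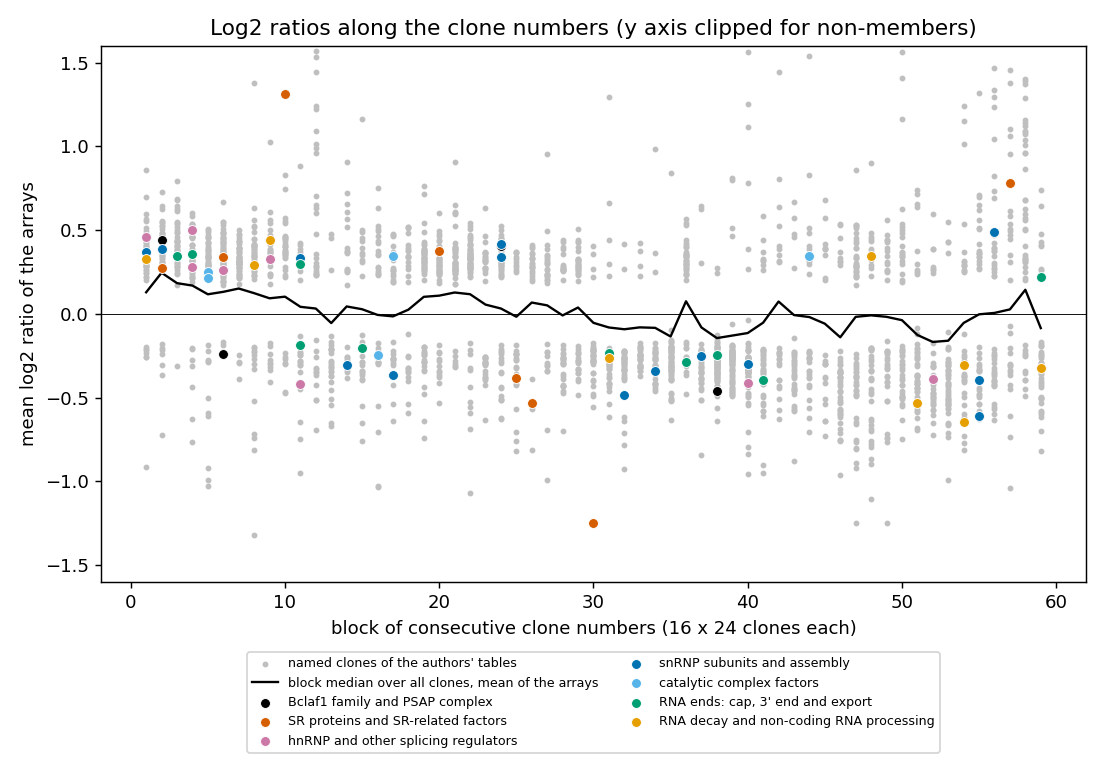
Mean log2 ratio of the arrays against the block of consecutive clone numbers, each of the size of a plate of 16 by 24 wells, for named clones (grey) and member clones (coloured by role), with the block median over all clones as a line. Of 19 member clones in blocks 1 to 10, 18 are positive; later blocks hold 27 of the 28 negative ones.

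Further annotation terms largely follow from those that chose the members and are given as a description of the list. The term nucleus was carried by 47 of the 52 members (90.4%) and by 28.3% of the 1865 other named genes with annotation. RNA binding was carried by 67.3% of members against 3.70%, and helicase activity by 7.69% against 1.45%. The members lay on 17 chromosomes, counting those whose symbol and gene ID agree. By the terms that chose the members, 20 of 42 genes of messenger RNA processing, 18 of 35 of RNA splicing, 15 of 25 of the spliceosome and 6 of 9 of RNA processing were positive. The terms share genes, and differences between them were not tested.

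Further genes of the pathway were taken from 8 lists of splicing and RNA processing factors, 327 genes in all. Of these, 75 were named in the authors' tables and 44 were members. The other 31 were 14 positive and 17 negative with a median of -0.20, and 0 of their 35 clones passed limma's adjusted threshold. An unadjusted p under 0.05 was found for 23 of the 35 (65.7%), against 13.9% of all clones and 59.4% of the named clones, which the authors chose on these arrays. Utp18, a factor of ribosomal RNA maturation, had the largest ratios, 2.31 and 1.38. Tut1, which adds uridines to U6 RNA, followed with 1.43 and 0.53.

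Several of these genes are relatives of members. Luc7l, a relative of Luc7l3, was negative on both clones (means -0.23 and -0.31), opposite to Luc7l3. The SR protein Srsf11 was negative at -0.19 and -0.50, and the SR-related Rsrc1 was positive at 0.48 and 0.29. The kinases Clk1 and Srpk3 had means of 0.30 and 0.31, opposite to Srpk2. Ddx17, the closest relative of Ddx5, had a mean of -0.36 and so lay opposite to it. Hnrnpdl had 1 clone at 0.30 and 1 at -0.84. Esrp1, a splicing regulator of epithelial cells, had 0.74 and 0.47, and Mbnl2, a regulator of tissue-specific exons, had -0.43 and -0.57.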

How the data were processed

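The authors deposited a table of log2 ratios, with 1 value for each clone on an array. No header or label states how background was corrected or how arrays were normalized. That the logarithm has base 2 follows from the listed clones, where the array means rose with the authors' fold change, in log2, at a slope of 0.974 (r = 0.990 across clones). The authors' gene tables, per the file headers, hold for each clone a linear ratio (the fold change) and a p-value, by a selection that no header or label describes. Spot intensities were not used here.

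Limma 3.58.1 (R 4.3.3) tested the mean of the 2 arrays against 0 for 22532 clones: an intercept fit by lmFit, then eBayes, two-sided, with Benjamini-Hochberg adjustment over all of them and a threshold of 0.05. The fit was first checked on simulated data drawn from its own variance model. These held no block or dye effect, so the check says nothing about either. The 3 control features were left out. All 59 member clones matched RefSeq (GRCm38.p6) by gene ID, and 10 took a current symbol; 3 whose symbol and gene ID disagree are given under both. Named genes were Bclaf1, Thrap3, 12 per side by the smaller of the ratios, genes with several clones and the 3 largest of each list; the other members are named so that each is accounted for, except 1 gene whose values are counted but not reported here. The members, roles and lists were chosen with earlier results of these data known.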

Additional observations from a re-analysis of the deposited data

How the results depend on the processing

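Of 75 values recomputed under other settings, 62 stayed within 1.5 times the reported count or, for the median, within 1 SD between the arrays. Some of the 62 were fixed in advance. Keeping ribosome, translation and mitochondrion terms in added no clone, so none of its values could change. Settings that altered only the member list used the reported fit, so the count over all clones could not change either. Each ratio is the difference within a pair of samples on 1 array, so the reported fit is already the paired one. No member clone changed side under centring, equal median absolute deviations, quantile normalization or block medians, which moved 0, 1, 2 and 22 of 58 clones by more than their SD. The 35 member clones at an unadjusted p under 0.05 became 23 with block medians subtracted and 11 in an ordinary one-sample test, both of which made 0 calls after adjustment. Past 1.5-fold, the positive count was 0 after centring, where Rbm39 fell just short, and the negative count was 1, Srsf7, with equal median absolute deviations and after quantile normalization. On single arrays these counts were 3 to 4 positive and 0 to 6 negative. The median over member genes, 0.11, lies in the gap between the sides and is no effect size. It was -0.011 with block medians subtracted, 0.26 without the clones of conflicting name, 0.0036 with RNA processing terms left out, -0.076 with the Strap clone of 1 array kept, and 0.088 to 0.11 on single arrays. The cause of these moves was not tested. The clone positions relative to their block, 30 positive and 28 negative, were added after the data were seen. Dim spots could not be filtered without intensities.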

Other observations

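The value table holds 3 features that are not cDNA clones. The blank feature had log2 ratios of -0.49 on array 1 and -0.78 on array 2, and 2 control features had -0.46 and -0.98 on array 1 with no value on array 2. Of the 58 member clones, 51 lay closer to 0 than the blank feature on both arrays.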
